A study of Gallus gallus with 15 samples.

Results

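The genes described here are PPM1K, a mitochondrial protein phosphatase, and the genes that break down the branched-chain amino acids leucine, isoleucine and valine. PPM1K was chosen by its measured difference from the control birds in both supplemented groups. The other genes were chosen by their role in the pathway, with earlier results of these data known. Of 10 genes named, 9 were found in the table of 17475 genes, and all 9 were among the 11858 genes tested. The kinase BCKDK, which switches the pathway off, was not analysed here.

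The birds were 15 female Korat chickens (KRC), a slow-growing cross of Thai indigenous males with a breeder line, whose breast muscle was taken at 10 weeks of age for RNA sequencing. Group B (5 birds) received a diet with 1% β-alanine and group C (5 birds) a diet with 0.5% L-histidine from 4 weeks of age, and group A (5 birds) received the diet without either supplement. Each bird came from its own cage and gave 1 library, and no bird was pooled with another. β-Alanine and L-histidine are the building blocks of carnosine, a dipeptide of muscle, and the trial was designed to raise its content in the meat.

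Leucine, isoleucine and valine are first transaminated to their keto acids, which the branched-chain keto acid dehydrogenase complex (BCKDH) of the mitochondrion then commits to oxidation. BCKDH is switched by phosphorylation of its E1α subunit: in mammals, BCKDK adds the phosphate and turns the complex off, and PPM1K removes it and turns the complex on. After this shared step each amino acid has its own branch, which ends in acetyl-CoA, in a ketone body or in succinyl-CoA, a member of the tricarboxylic acid (TCA) cycle.

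The libraries held 10620229 to 15381547 counted fragments, and the genes described here had 127 to 2691 fragments in a bird. Levels are given as normalized FPKM, which are fragments relative to the exonic length and to the library total after scaling by relative log expression. The fast-fibre list, of which 5 of 8 genes were tested, was high in every bird. Its summed level was 76662 to 101691 normalized FPKM in group B, 59838 to 109325 in group C and 91302 to 145150 in group A, and 4 of 5 birds in each supplemented group lay under every control bird. Most of this sum was ACTA1, with means of 55617 in group B, 52467 in group C and 68514 in group A. The sum therefore mainly follows that gene and does not measure the share of fast fibres. All 5 log2 fold changes of the list were negative in both groups (medians -0.35 and -0.61), and 0 in group B and 4 in group C had an unadjusted p under 0.05 by edgeR, against 10.6% and 19.2% of all genes. These counts were 0 and 0 without the 3 libraries named next (7.6% and 5.25% of all genes), with medians of -0.08 and -0.26. By slow-fibre RNA or by gene length, 3 libraries stood apart. L-histidine replicate 2 carried RNA of slow fibres: the 8 slow-fibre genes other than TNNC1 and CASQ2, which were high in every bird, summed to 7162 normalized FPKM there, against 17.5 to 108 in the other 14 birds. In control replicates 3 and 4, short genes were over-represented, with slopes of -0.27 in both of the log2 deviation on log2 exonic length, against -0.09 to 0.14 in the other birds, and control replicate 4 also had the lowest total. The main counts below are therefore also given without these 3 libraries, a choice made after seeing the data. Control replicate 5 was kept in those counts, though its 6 fat-cell genes summed to 368 normalized FPKM. The highest such sums were 93.2 in the other control birds, 80.8 in group B and 220 in group C. That library was left out only on its own, as each bird was in turn.

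PPM1K, on chromosome 4 from 46991647 to 47009784 on the minus strand (GRCg6a), was lower in both supplemented groups, as its choice fixed. In group B the birds had 6.05, 8.26, 8.29, 10.5 and 6.31 normalized FPKM, in group C 11.3, 8.17, 5.58, 9.06 and 5.28, and in group A 21.0, 11.5, 15.4, 18.2 and 20.1 (replicates 1 to 5 in each). Every supplemented bird lay under every control bird, with the narrowest gap between L-histidine replicate 1 and control replicate 2. The means were 7.87 ± 1.79 in group B, 7.88 ± 2.52 in group C and 17.2 ± 3.86 in group A (SD, n = 5 each). The log2 fold change was -1.13 (SE 0.23) in group B and -1.13 (SE 0.23) in group C, which are 0.457 and 0.458 of the control level. Because these values chose the gene, they are a description and no test is given. Among all 11858 genes, 0.869% lay under group A without overlap in group B and 1.05% did so in group C, and PPM1K was the only one of the 9 genes here that did so in either. Both comparisons use the same 5 control birds. The summed level of the fast-fibre list given above, mostly ACTA1, was also lower in most supplemented birds, and its part in this difference was not tested. In bulk tissue, fewer cells of a type and less RNA per cell cannot be told apart.

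The difference of PPM1K between the supplemented groups did not itself choose the gene. The choice rested on the difference of both groups from the same control birds, so this comparison is not wholly free of it. The log2 difference of group C from group B was 0.0031, with a 95% interval of -0.48 to 0.49, and an adjusted p of 0.999 by edgeR's quasi-likelihood test with Benjamini and Hochberg's adjustment. The interval leaves room for a difference of up to about 0.49 on the log2 scale in either direction, so the groups are not shown to be alike. Without the 3 libraries that stood apart, the log2 fold change of PPM1K was -1.15 (SE 0.27) in group B and -1.16 (SE 0.29) in group C.

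**Figure D1:**
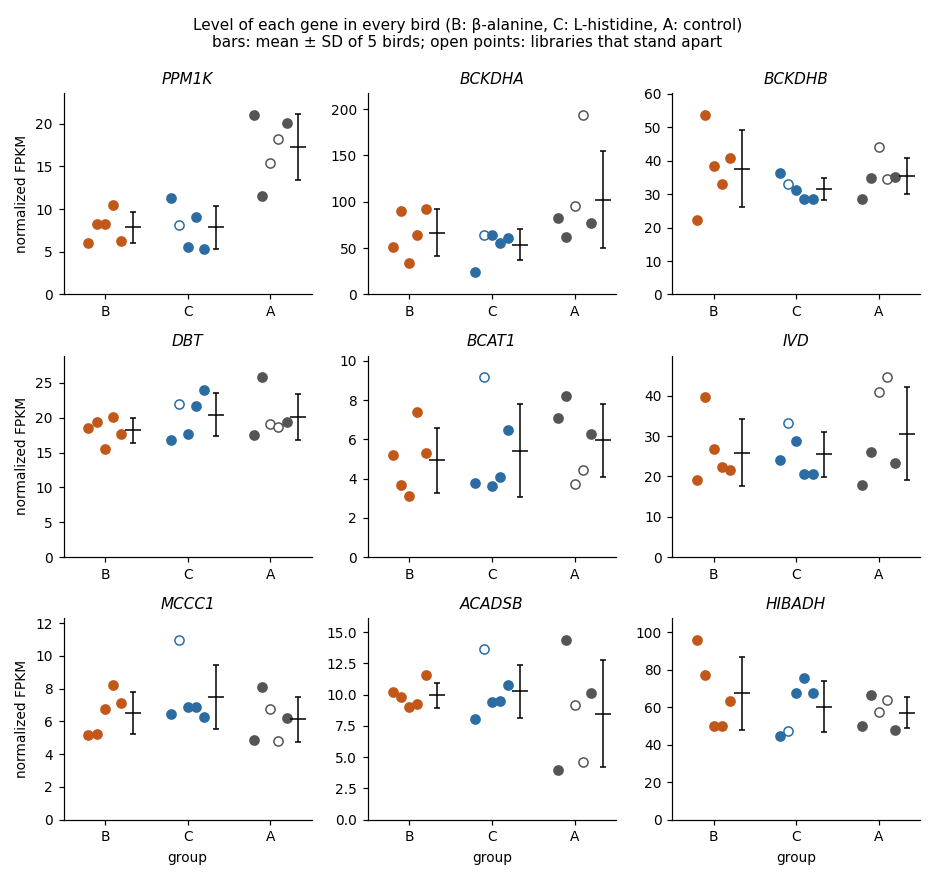
Normalized FPKM of the 9 genes (vertical axes, each from 0) in every bird of the β-alanine (B), L-histidine (C) and control (A) groups, with the mean ± SD of 5 birds beside the points; open points are control replicates 3 and 4 and L-histidine replicate 2. PPM1K, chosen by this difference, is the 1 gene whose supplemented birds (5.28 to 11.3) all lie under the control birds (11.5 to 21.0), while the other 8 genes overlap. Of all genes tested, 0.869% lay under A without overlap in B and 1.05% in C.

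BCKDHA encodes E1α, the subunit that carries the phosphate PPM1K removes, and lies from 264687 to 271071 on the minus strand of a small chromosome. It was the highest of the 9 genes in group A per length and also the most variable, with a coefficient of variation of 52.4% over the 15 birds. The birds of group B had 51.2, 90.2, 33.6, 64.1 and 92.7 normalized FPKM, those of group C 24.6, 64.3, 63.7, 55.0 and 60.5, and those of group A 82.8, 62.3, 95.3, 194 and 77.2. All 10 supplemented birds lay under the control mean of 102, but that mean was raised by control replicate 4, and both supplemented groups overlapped with group A. The log2 fold change was -0.62 (SE 0.34) in group B and -0.93 (SE 0.34) in group C. Neither passed edgeR's quasi-likelihood test after Benjamini-Hochberg adjustment (adjusted p = 0.509 and 0.183), and DESeq2 gave an adjusted p of 0.456 and 0.0796. Without control replicate 4, the log2 fold changes were -0.26 in group B and -0.57 in group C, and the unadjusted p in group C was 0.0764 in place of 0.0140. BCKDHA has an exonic length of 1464 bases, and with the length trend of each library removed its log2 fold changes were -0.46 and -0.68; the part of the length trend in the difference was not tested further.

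The other subunits of BCKDH were near the control level in both groups. BCKDHB, on chromosome 3 from 79052921 to 79163326, encodes E1β, the partner of E1α. It had 22.4, 53.7, 38.3, 33.0 and 40.6 normalized FPKM in group B, 36.4, 33.0, 31.3, 28.4 and 28.6 in group C, and 28.6, 34.7, 44.0, 34.4 and 35.1 in group A. Group B held both the lowest and the highest of the 15 birds, so its spread (SD 11.4) was wider than that of group C (3.31) and of group A (5.50). Its log2 fold changes were 0.09 (SE 0.19) in group B and -0.16 (SE 0.19) in group C. DBT, on chromosome 8 from 12304544 to 12317554, encodes the E2 core on which the complex is built, and was the least variable of the 9 genes (coefficient of variation 14.2%). Its levels were 15.5 to 20.1 in group B, 16.8 to 24.0 in group C and 17.6 to 25.8 in group A, with log2 fold changes of -0.14 (SE 0.15) and 0.02 (SE 0.15). DLD, the E3 subunit that BCKDH shares with pyruvate dehydrogenase and 2-oxoglutarate dehydrogenase, averaged 80.3 ± 11.4, 81.4 ± 7.32 and 94.7 ± 33.3 in groups B, C and A, and control replicate 4 alone had 152.

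The transcripts of the complex and of its phosphatase can be compared within a bird, where library scaling cancels. A length trend of a library does not cancel, as PPM1K has 5970 exonic bases and DBT 1949. The ratios are of RNA, and neither protein nor activity was measured. PPM1K was 0.327 to 0.535 of DBT in group B (median 0.425), 0.220 to 0.674 in group C (median 0.371) and 0.444 to 1.20 in group A (median 0.976). The phosphatase transcript exceeded the E2 transcript in 2 of 5 control birds, and in 0 of 5 birds in each supplemented group. The groups overlap in this ratio only through control replicate 2, which had the lowest PPM1K and the highest DBT of its group. BCKDHA exceeded BCKDHB in 13 of the 15 birds, with medians of 1.94 in group B, 1.95 in group C and 2.20 in group A, and the exceptions were β-alanine replicate 3 (0.877) and L-histidine replicate 1 (0.677). BCKDHB exceeded DBT in every bird, by 1.19 to 2.76 times. These ratios with PPM1K rest on the values that chose it and carry no test.

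**Figure D2:**
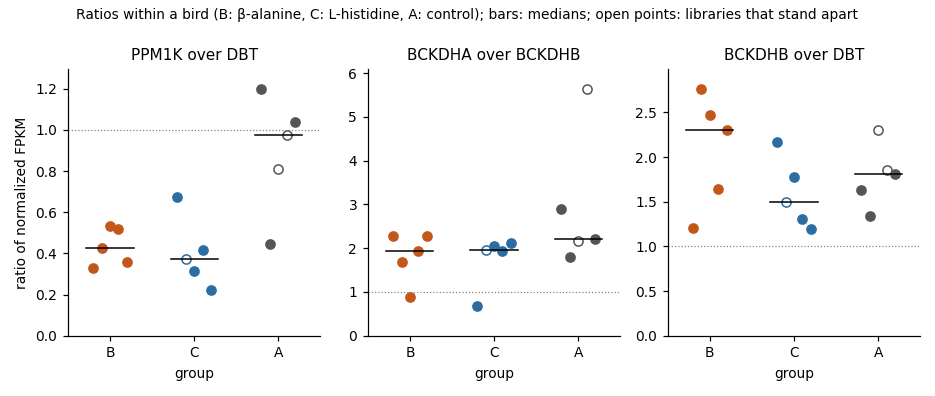
Ratio of normalized FPKM within each bird (vertical axes, from 0) for PPM1K over DBT, BCKDHA over BCKDHB and BCKDHB over DBT, in the β-alanine (B), L-histidine (C) and control (A) groups; bars are medians, the dotted line marks equal levels, and open points are the libraries that stood apart. The median of PPM1K over DBT is 0.425 in B, 0.371 in C and 0.976 in A, and BCKDHA lies under BCKDHB in 1 bird of B and 1 of C.

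BCAT1 encodes the cytosolic transaminase that removes the amino group before BCKDH, on chromosome 1 from 65359235 to 65425464. The mitochondrial transaminase BCAT2 was not analysed here, so BCAT1 alone does not stand for this step. BCAT1 was the lowest of the 9 genes in group A, and its birds had 3.13 to 7.38 normalized FPKM in group B (median 5.19), 3.64 to 9.17 in group C (median 4.06) and 3.73 to 8.20 in group A (median 6.27). The log2 fold changes were -0.27 (SE 0.30) and -0.13 (SE 0.30), within the spread of the birds. The highest bird was L-histidine replicate 2, the one with slow-fibre RNA, and the lowest control birds were replicates 3 and 4. Without these 3 libraries, the log2 fold change of BCAT1 was -0.54 (SE 0.26) in group B and -0.67 (SE 0.27) in group C, with adjusted p of 0.677 and 0.900 by edgeR's quasi-likelihood test.

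In the leucine branch, IVD (isovaleryl-CoA dehydrogenase, chromosome 5 from 1019913 to 1035629) had 19.0 to 39.8 normalized FPKM in group B, 20.5 to 33.4 in group C and 18.0 to 44.6 in group A. The log2 fold changes were -0.24 (SE 0.26) and -0.26 (SE 0.26), and the highest birds of group A were again control replicates 3 (41.1) and 4 (44.6). Without the 3 libraries that stood apart, the sign turned in both groups, to 0.21 and 0.07. MCCC1, the biotin-carrying subunit of methylcrotonyl-CoA carboxylase, which follows IVD, lies on chromosome 9 from 16547628 to 16563543. It had 5.20, 5.21, 6.75, 8.22 and 7.15 normalized FPKM in group B, 6.46, 11.0, 6.86, 6.91 and 6.28 in group C, and 4.85, 8.09, 6.73, 4.82 and 6.24 in group A. All 5 birds of group C lay above the control mean of 6.15, with a log2 fold change of 0.29 (SE 0.20), against 0.08 (SE 0.20) in group B, and L-histidine replicate 2 stood far above its group. Without that bird, the log2 fold change in group C was 0.11.

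In the isoleucine and valine branches, ACADSB, the dehydrogenase of the short branched acyl-CoA formed from isoleucine, lies on chromosome 6 from 32401488 to 32418776. It had 10.2, 9.80, 8.98, 9.25 and 11.6 normalized FPKM in group B, 8.07, 13.6, 9.39, 9.51 and 10.7 in group C, and 4.0, 14.4, 9.18, 4.65 and 10.2 in group A. The birds of group B were close together (SD 1.01), whereas group A spread over the widest range (SD 4.27) and held both the lowest and the highest of the 15 birds. The log2 fold changes were 0.23 (SE 0.27) in group B and 0.27 (SE 0.27) in group C. HIBADH, the dehydrogenase of 3-hydroxyisobutyrate in the valine branch (chromosome 2 from 32837145 to 32919500), had 95.9, 77.3, 50.0, 50.1 and 63.2 in group B, 44.5, 47.2, 67.4, 75.3 and 67.4 in group C, and 49.9, 66.4, 57.6, 63.9 and 47.8 in group A. Its mean was 67.3 in group B, 60.3 in group C and 57.1 in group A, above that of BCKDHA in groups B and C and under it in group A, and its log2 fold changes were 0.24 (SE 0.21) and 0.08 (SE 0.21), with all 3 groups overlapping.

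Of the 8 genes other than PPM1K, 0 passed edgeR's quasi-likelihood test after Benjamini-Hochberg adjustment in either supplemented group, as did 0% of all genes in group B, 0% in group C and 0% between groups C and B. At an unadjusted p under 0.05, 0 of the 8 were counted in group B, where 10.6% of all genes were, and 1 of 8 (BCKDHA, lower) in group C, where 19.2% were. When the 3 libraries that stood apart were left out, 0 of 8 were counted in group B (7.6% of all genes) and 1 of 8 in group C (5.25%). The gene counted in group C was then BCAT1 (log2 fold change -0.67, unadjusted p = 0.0270 by edgeR's quasi-likelihood test) in place of BCKDHA (unadjusted p = 0.140). A count of 0 or 1 among 8 genes is too small to be set apart from these shares. The median log2 fold change of the 8 was -0.03 in group B and -0.05 in group C, against -0.02 and 0.01 for all genes tested, with 4 of 8 negative in each (3 and 5 without those libraries). Without scaling of the library totals, the median of all genes was 0.18 and 0.29, and 2 and 1 of the 8 were negative, so the signs of the near-zero values are relative to the scaling. DESeq2 called 0 of the 8 in either group. Of the genes to which it gave an adjusted p, it called 0.472% of 12078 in group B and 3.02% of 7842 in group C. Between groups C and B, 0 of the 9 genes had an unadjusted p under 0.05 (4.02% of all genes), and DESeq2 called 0% of all genes. The widest 95% interval there was that of BCKDHA, with a log2 difference of -0.31 (-1.02 to 0.40).

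The wider pathway was described with 19 further enzymes, chosen by role with earlier results of these data known. Of these, 17 were tested, and BCAT2 and HSD17B10 were not. In group B, 1 of 17 was lower at an unadjusted p under 0.05 and 0 were higher, and in group C 0 were either (10.6% and 19.2% of all genes), with 0 past the adjusted threshold and 0 called by DESeq2 in both. In group C, DESeq2 gave MMAA, MMAB and MCEE no adjusted p. The median log2 fold change was -0.19 in group B and -0.13 in group C, with 13 and 14 of 17 negative. With the 3 libraries that stood apart left out, the counts were 0 and 0 (7.6% and 5.25% of all genes). The medians were then 0.0029 and -0.04, with 7 and 11 of 17 negative.

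PCCA, the biotin-carrying subunit of propionyl-CoA carboxylase, which takes up the propionyl-CoA of isoleucine and valine, had 3.02 ± 0.440 normalized FPKM in group B, 3.07 ± 0.387 in group C and 3.80 ± 0.531 in group A (SD, n = 5 each). Its log2 fold changes were -0.33 (SE 0.15) and -0.30 (SE 0.15), with adjusted p of 0.458 and 0.287 by edgeR, and it was the 1 gene counted in group B. Its partner PCCB had log2 fold changes of -0.24 (SE 0.18) in group B and -0.19 in group C, and methylmalonyl-CoA mutase (MUT), which makes succinyl-CoA, had -0.20 (SE 0.16) and -0.13. Among the genes with the smallest p in group C, ACAD8 (isobutyryl-CoA dehydrogenase) averaged 33.1 ± 6.02 in group C and 43.1 ± 11.6 in group A, ECHS1 (short-chain enoyl-CoA hydratase) 45.0 ± 10.9 and 54.7 ± 20.8, and HIBCH (3-hydroxyisobutyryl-CoA hydrolase) 32.1 ± 3.10 and 36.0 ± 5.96. AUH, the hydratase of the leucine branch, was near 1 normalized FPKM in all groups (0.991 ± 0.120 in B, 0.899 ± 0.222 in C and 0.828 ± 0.137 in A).

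**Figure D3:**
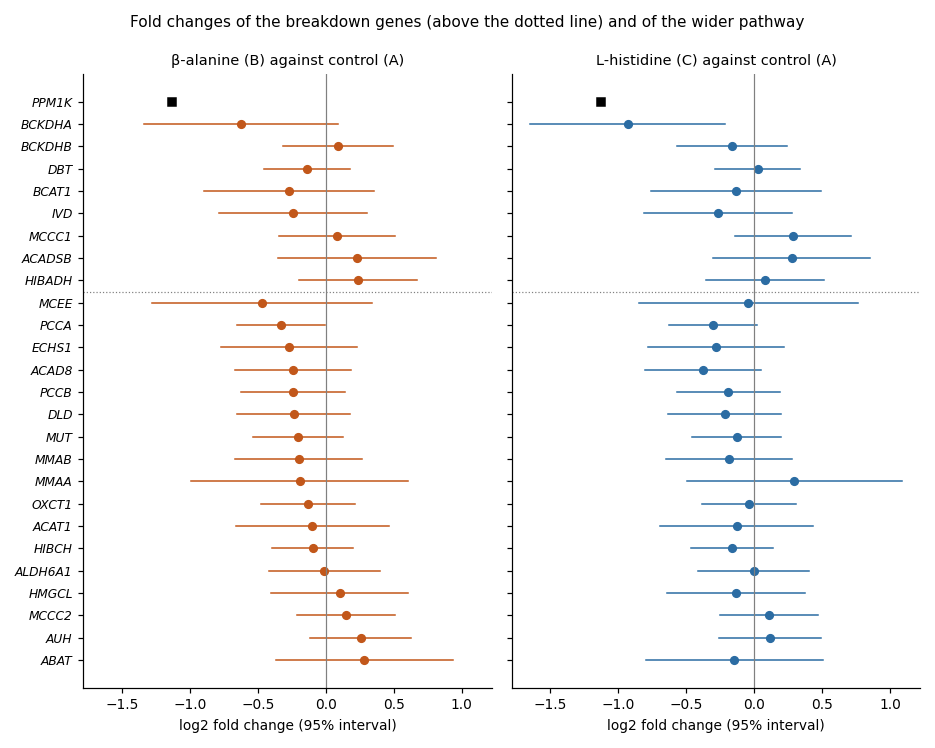
Log2 fold change with its 95% interval (horizontal axes) of the 9 genes described here, above the dotted line, and of 17 further genes of branched-chain amino acid breakdown, below it, for β-alanine (B, left) and L-histidine (C, right) against control. PPM1K is a black square without an interval because its difference chose it (-1.13 in both); BCKDHA in C (-0.93) and PCCA in B (-0.33) are the 2 other genes whose intervals exclude 0, and neither passed after adjustment.

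PPM1K belongs to the PP2C family of metal-dependent phosphatases, and other members of the family and relatives were described for comparison. Of 18 such genes listed, 16 were tested, and PPM1H and PPM1N were not. Of the 16, 0 passed the adjusted edgeR test in either group. At an unadjusted p under 0.05, group B had 0 higher and 3 lower, and group C 2 higher and 3 lower, against 10.6% and 19.2% of all genes. After adjustment, DESeq2 called 0 in group B and 3 in group C, all lower (0.472% and 3.02% of the genes to which it gave an adjusted p). PPM1F had no such value in group C. The median log2 fold change of the 16 was 0.05 in group B and -0.0007 in group C.

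In each group the 3 lower genes were PDP1, the phosphatase that switches on pyruvate dehydrogenase, PPM1J, a less studied PP2C phosphatase, and TAB1, a PP2C-like partner of the kinase TAK1 that lacks phosphatase activity. PDP1 had 21.2, 36.8, 14.0, 26.8 and 16.3 normalized FPKM in group B, 21.4, 12.2, 13.5, 16.5 and 23.6 in group C, and 44.0, 39.0, 32.0, 43.3 and 25.4 in group A. Group C lay wholly under group A, while β-alanine replicates 2 and 4 reached into the range of group A. The log2 fold change of PDP1 was -0.67 (SE 0.26) in group B and -1.08 (SE 0.27) in group C, with adjusted p of 0.437 and 0.170 by edgeR's quasi-likelihood test and of 0.293 and 0.0125 by DESeq2.

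PPM1J averaged 6.99 ± 3.28 in group B, 5.52 ± 0.783 in group C and 11.2 ± 4.89 in group A (SD, n = 5 each), with log2 fold changes of -0.68 (SE 0.30) and -1.02 (SE 0.30). TAB1 averaged 6.77 ± 0.716, 6.05 ± 0.580 and 9.37 ± 2.57 in groups B, C and A, with log2 fold changes of -0.46 (SE 0.18) and -0.63 (SE 0.19). By DESeq2 the adjusted p in group C was 0.0439 for PPM1J and 0.0494 for TAB1. Control replicate 4 was the highest bird for PPM1J (19.8), and control replicates 3 and 4 were the highest for TAB1 (11.9 and 11.6). Without the 3 libraries that stood apart, the log2 fold changes in group C were -0.94 for PDP1, -0.67 for PPM1J and -0.34 for TAB1. In group B they were -0.65, -0.28 and -0.20. The genes counted were then 1 in group B (PDP1) and 2 in group C (PDP1 and PPM1J), each of them lower (7.6% and 5.25% of all genes). The 2 higher genes of group C, named after their values were seen, were PHLPP1, a phosphatase of the kinase AKT (0.60, SE 0.19), and PPM1A (0.40, SE 0.16). Without those libraries they had 0.44 and 0.24, with unadjusted p of 0.0508 and 0.128 by edgeR.

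**Figure D4:**
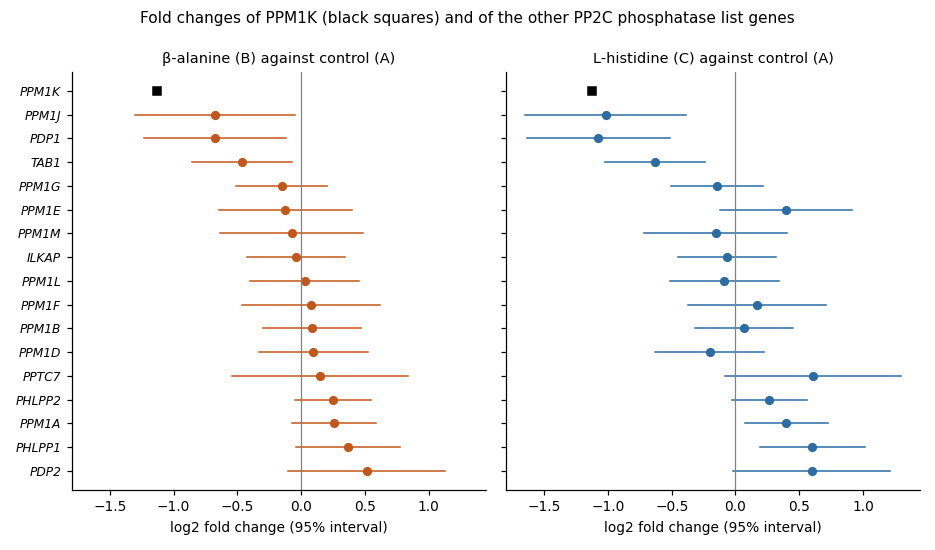
Log2 fold change (horizontal axes) of PPM1K, a black square without an interval, and of 16 other genes of the PP2C list with their 95% intervals, for β-alanine (B, left) and L-histidine (C, right) against control. PPM1J, PDP1 and TAB1 are the 3 genes with intervals under 0 in both panels. PHLPP1 and PPM1A have intervals wholly above 0 in C alone, with log2 fold changes of 0.37 and 0.26 in B. Between C and B the p of PHLPP1 was 0.238 and that of PPM1A 0.372 by edgeR, and neither passed (adjusted p = 0.983 for both).

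The TCA cycle and the dehydrogenase complexes related to BCKDH were a further list, of which 17 genes were tested. All 17 log2 fold changes were negative in both groups, with medians of -0.35 and -0.37, and 8 genes in group B and 7 in group C were lower at an unadjusted p under 0.05 (10.6% and 19.2% of all genes in either direction), while 0 passed after adjustment. PDHX, which anchors the E3 subunit in pyruvate dehydrogenase, averaged 3.23 ± 0.727 in group B, 3.98 ± 0.442 in group C and 5.13 ± 0.738 in group A (SD, n = 5 each), with log2 fold changes of -0.67 (SE 0.17) and -0.37 (SE 0.16), and was called by DESeq2 in group B (adjusted p = 0.0350). MDH2, mitochondrial malate dehydrogenase, averaged 265 ± 40.9, 262 ± 34.6 and 433 ± 229 in groups B, C and A, and IDH3B, a subunit of isocitrate dehydrogenase, 86.5 ± 12.6, 79.1 ± 12.4 and 125 ± 47.0. SDHB, the iron-sulfur subunit of succinate dehydrogenase, had 120, 140, 242, 372 and 133 in the control birds, so that control replicates 3 and 4 stood above the rest, as they did for MDH2 (453 and 824) and IDH3B (137 and 202). Without the 3 libraries that stood apart, 2 genes in group B and 0 in group C were lower at that p (7.6% and 5.25% of all genes), with medians of -0.11 and -0.19 and with 13 and 17 of 17 negative.

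Of 8 listed transporters of branched-chain or other neutral amino acids, 4 were tested, which were SLC7A5, SLC25A44, SLC43A2 and SLC38A2. SLC7A8, SLC3A2, SLC43A1 and SLC6A15 were not. Of the 4, 0 in group B and 2 in group C (both lower) had an unadjusted p under 0.05, against 10.6% and 19.2% of all genes. The counts were 0 and 1 (SLC7A5) when the 3 libraries that stood apart were left out, against 7.6% and 5.25%. SLC7A5, the light chain of the large neutral amino acid exchanger of the cell membrane, had 23.7, 33.5, 19.4, 29.1 and 37.0 normalized FPKM in group B, 18.8, 13.2, 26.6, 24.5 and 19.7 in group C, and 27.3, 38.5, 32.0, 82.5 and 34.8 in group A. Group C lay under group A without overlap, though by little (26.6 against 27.3), and control replicate 4 was far above the other controls. The log2 fold change was -0.59 (SE 0.28) in group B and -1.06 (SE 0.29) in group C, with adjusted p of 0.471 and 0.170 by edgeR and 0.405 and 0.0259 by DESeq2, and without control replicate 4 it was -0.22 and -0.69. SLC25A44, which carries branched-chain amino acids into the mitochondrion in mammals, averaged 26.1 ± 7.80, 20.7 ± 6.22 and 35.7 ± 17.3 in groups B, C and A. Its log2 fold change in group C was -0.79 (SE 0.31), and -0.02 without those libraries. SLC43A2, another neutral amino acid transporter, averaged 29.0 ± 14.9, 25.1 ± 12.6 and 12.3 ± 13.5, with control replicate 1 (35.0) far above the other controls.

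Of 7 regulators of the pathway or of amino acid sensing, group B had 3 with an unadjusted p under 0.05, of which 1 was lower, and group C had 1, which was higher (10.6% and 19.2% of all genes), and 0 passed the adjusted edgeR test in both. PPARGC1A, a coactivator of mitochondrial genes, averaged 1.98 ± 1.59 in group B, 1.19 ± 0.735 in group C and 0.627 ± 0.366 in group A (SD, n = 5 each), with log2 fold changes of 1.65 (SE 0.55) and 0.91 (SE 0.54). The mean of group B was raised by β-alanine replicate 1 (4.75), as the other birds of that group had at most 1.66. SESN2, a leucine sensor of the mTOR pathway, averaged 6.15 ± 3.0, 2.56 ± 0.673 and 3.03 ± 1.94 in groups B, C and A. Its highest bird was β-alanine replicate 2 (11.0), and the other birds of group B had at most 5.86. PPARA, a nuclear receptor of fatty acid oxidation, averaged 1.10 ± 0.286, 1.98 ± 0.847 and 0.923 ± 0.354, and was called by DESeq2 in group C (log2 fold change 1.09, SE 0.32, adjusted p = 0.0432). Its highest bird was L-histidine replicate 2 (3.37). By edgeR with all birds, the adjusted p of PPARA in group C was 0.170. Without the 3 libraries that stood apart its log2 fold change in group C was 0.57, with an unadjusted p of 0.0380 and an adjusted p of 0.928 by edgeR. SREBF1, a transcription factor of lipid synthesis, had log2 fold changes of -0.59 (SE 0.25) in group B and -0.42 (SE 0.25) in group C, and without the 3 libraries it was no longer counted, and the counts were 2 genes for group B and 1 for group C, each of them higher (7.6% and 5.25% of all genes). Between groups C and B, the smallest p of this list was that of SESN2 (log2 difference -1.26, SE 0.40), which did not pass (adjusted p = 0.983 by edgeR).

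Within the groups, no relation of PPM1K with another of the breakdown genes passed the test. The deviations of log2 levels from the group means were compared over the 15 birds, which leaves out the diet difference that chose PPM1K. HIBADH had a Pearson r of -0.626 and a Spearman rho of -0.596 with PPM1K (two-sided permutation p = 0.0248 and 0.0323, within groups), which over the 8 genes gave adjusted p of 0.199 and 0.258. Without the 2 birds farthest from the median of PPM1K the r was -0.599, and without the 3 libraries that stood apart it was -0.659 (12 birds). ACADSB had an r of -0.491 (rho -0.471, permutation p = 0.0616 and 0.111, adjusted p = 0.247 and 0.443), and DBT one of -0.415, which was 0.0089 without the 2 farthest birds. For the remaining 5 genes r lay between -0.210 for BCKDHA and 0.167 for BCKDHB.

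**Figure D5:**
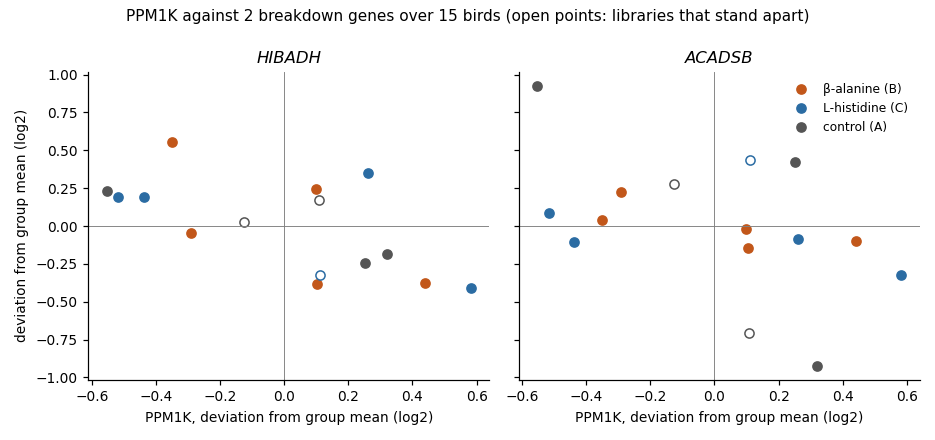
Deviation from the group mean, on the log2 scale, of HIBADH (left) and ACADSB (right, vertical axes) against that of PPM1K (horizontal axes) in 15 birds of the β-alanine (B), L-histidine (C) and control (A) groups; open points are the libraries that stood apart. The points run downwards with a Pearson r of -0.626 for HIBADH and -0.491 for ACADSB, and neither passed after adjustment over 8 genes.

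The genes whose log2 levels followed PPM1K most closely over the 15 birds were taken from the 9355 genes whose deposited FPKM averaged 1 or more. By Pearson r they were SLC25A25, a mitochondrial carrier (0.807), CIART, a repressor in the circadian clock (0.799), GRIP2, a scaffold protein (0.798), FLT4, a receptor of lymphatic vessels (0.796), and POR, the reductase of cytochrome P450 (0.793). The genes most opposed to it were SERAC1 (-0.831), the muscle ubiquitin ligase adaptor ASB2 (-0.812) and the activin receptor ACVR2A (-0.802). These values describe 15 libraries that share the diet difference, which itself contributes to r, and they carry no test. On deviations from the group means, the closest were LOC112530929 (0.823), the kinase WNK2 (0.778) and the RNA-binding protein TAF15 (0.760), so that none of the genes named for the levels was among the 3 closest within groups.

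None of the nearest tested neighbours of PPM1K on chromosome 4, 2 on each side, passed the adjusted edgeR test in either group. WDFY3, a scaffold of selective autophagy, ends 4.29 kb from PPM1K on the opposite strand and averaged 4.41 ± 0.331 normalized FPKM in group B, 5.10 ± 0.943 in group C and 3.81 ± 1.27 in group A (SD, n = 5 each), with log2 fold changes of 0.21 (SE 0.21) and 0.42 (SE 0.21). GPAT3, a glycerol-3-phosphate acyltransferase 467.6 kb away on the same side, had log2 fold changes of 0.23 (SE 0.19) and 0.40 (SE 0.19). On the other side the neighbours were far, TECRL at 2072 kb and IGFBP7 at 2155 kb. IGFBP7 was negative in both groups, with -0.42 (SE 0.21) in group B and -0.11 (SE 0.21) in group C. TECRL reached 15.3 normalized FPKM in a single bird of group C and at most 0.103 in groups B and A. The adjusted p of WDFY3, GPAT3 and IGFBP7 by edgeR's quasi-likelihood test lay between 0.262 and 0.790. The sources used here do not say whether counting used the strand, so how fragments of overlapping transcripts were assigned is not known.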

How the data were processed

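Poly(A) RNA of breast muscle from 15 birds was sequenced. Per the submitters' processing notes, the authors used cutadapt 1.9.1 for trimming, HISAT2 2.0.1 for alignment to the build GRCg6a and HTSeq 0.6.1 for counting per gene. The deposited counts are raw whole numbers, from which the authors computed the deposited FPKM by dividing by exonic length and library total. The members and all gene lists were chosen with earlier results of these data known.

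Library totals were scaled by relative log expression, and genes whose deposited FPKM averaged 0.2 or more entered a quasi-likelihood fit of all 15 birds (edgeR 4.0.16, R 4.3.3, 12 residual degrees of freedom). The p-values of 3 comparisons were adjusted over 11858 genes after Benjamini and Hochberg, and a gene passed at 0.05. They rest on the spread between birds within groups, estimated over all 15 birds together, each bird from its own cage. DESeq2 1.42.0 and limma 3.58.1 on log2(FPKM + 1) were alternatives, beside other scaling, no filter, 2 groups alone, a replicate block, each bird left out and, chosen after seeing the data, a length trend offset (lowess, span 0.5) and leaving out 3 libraries. Relations within groups used 100000 permutations (scipy 1.17.1). The fits were also run on simulated counts with known changes. Those counts held no length trend and no slow-fibre library, so that run cannot show how the fits behave on these libraries.

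Named were all members, the 4 genes of the wider pathway and the 3 PP2C genes with the smallest p against control, and the 2 of each other list. Also named were the genes with the highest and the most negative Pearson r with PPM1K, and its 2 tested neighbours on each side. Coordinates are 1-based on GRCg6a, and chromosome names are those of the same symbols in GRCg7b, where both agree. No sequence is shown.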

Additional observations from a re-analysis of the deposited data

Results flagged for a closer look

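For each of the 9 genes, the highest and the lowest bird of each group were compared with the rest of the group, and 4 birds lay further out than Dixon's 95% limit for 5 birds. With 27 combinations of gene and group and a chance of about 1 in 20 for each, 1.35 are expected. BCKDHA had 24.6 normalized FPKM in L-histidine replicate 1, where the next bird had 55.0, and 194 in control replicate 4, where the next bird had 95.3. DBT had 25.8 in control replicate 2, where the next bird had 19.3. MCCC1 had 11.0 in L-histidine replicate 2, the library with slow-fibre RNA, where the next bird had 6.91.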

How the results depend on the processing

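PPM1K kept its sign against group A in 24 of 24 alternatives (log2 fold change -1.25 to -0.83 in group B and -1.32 to -0.78 in group C). PPM1K was chosen by this difference in the same birds, so the kept sign is a description and no support for the difference. The other 8 genes reached an adjusted p under 0.05 in none of the alternatives, with a smallest value of 0.0796 for BCKDHA in group C by DESeq2. The signs that turned are of values within the spread of the birds, which 5 birds a group and these depths cannot settle, and apart from the birds or libraries left out the cause was not tested.

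The wider pathway count of group B at an unadjusted p under 0.05 moved with most choices, and the other counts with fewer. With unscaled library totals, 1 of the 8 genes (HIBADH, higher) was counted in group B, while MCCC1, higher, was counted in place of BCKDHA in group C, as with limma. Of all genes, 10.4% in group B and 22.4% in group C were counted with unscaled totals, and 10.5% and 23.3% with limma. With the 3 libraries left out, the gene counted in group C was BCAT1, lower (5.25% of all genes). The wider pathway count of group B was 0 with TMM scaling, unscaled totals, no filter, limma, the 2 groups alone and without the 3 libraries that stood apart. Under these settings, 7.6% to 10.6% of all genes were counted in group B. In group C the wider pathway count was 1 with the length trend removed (16.3% of all genes). With the replicate block, the wider pathway count was 0 in group B (1 without it) and 1 in group C. Of all genes, 10.3% and 18.7% were counted there. Under that block the log2 difference of PPM1K between groups C and B was -0.032 and that of IVD 0.0013. Deviations of birds with the same number correlated between -0.239 and 0.247. That range was not compared with birds of different numbers, so it cannot decide whether the numbers pair the birds. Nothing in the labels ties a number across diets.

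Unscaled totals turned DBT (0.044) and IVD (0.019) in group B, BCKDHB (0.13), BCAT1 (0.14) and IVD (0.082) in group C and the C to B difference of IVD (0.064). Limma, run on the deposited FPKM and so likewise on unscaled totals, turned the same values, to 0.078, 0.0093, 0.14, 0.10, 0.087 and 0.077. With the length trend removed, BCKDHB was 0.032 in group C, and the C to B differences were -0.072 for PPM1K and -0.0071 for ACADSB. Without the 3 libraries, IVD was 0.21 in group B and 0.069 in group C, DBT -0.058 and ACADSB -0.0096 in group C, and the C to B differences were -0.0087 for PPM1K, -0.14 for BCAT1 and -0.078 for ACADSB. The C to B difference of PPM1K was -0.0028 with TMM, -0.0029 without the filter, -0.0028 with DESeq2 and -0.00037 with the 2 groups alone.

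With each bird left out in turn, the count of the 8 genes was 0 to 1 in group B and 0 to 2 in group C (0 without control replicate 4). That of the 9 genes between groups C and B was 0 to 1, and that of the wider pathway 0 to 1 in group B and 0 to 2 in group C. Over the same fits, 6.36% to 14.9% of all genes were counted in group B and 10.8% to 24.2% in group C. Between groups C and B, 2.69% to 5.95% were. The shares in groups B and C were lowest without control replicate 4. Log2 fold changes ran from -0.074 to 0.23 for BCKDHB and from -0.019 to 0.20 for MCCC1 in group B, and from -0.041 to 0.13 for DBT, -0.41 to 0.010 for BCAT1 and -0.013 to 0.17 for HIBADH in group C. Between groups C and B they ran from -0.16 to 0.13 for PPM1K, -0.14 to 0.33 for BCAT1, -0.14 to 0.18 for IVD, -0.25 to 0.0052 for HIBADH and -0.081 to 0.12 for ACADSB.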
